A study of Mus musculus with 18 samples.

Results

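The genes described here are 35 interferon-stimulated and antigen-presentation genes, a set given as a list of gene symbols. The set was chosen with earlier results of these data known. All 35 were found among the 19153 genes of the deposited files, and all 35 were among the 17672 genes that passed the filter on low counts. They comprise 5 transcription factors, 10 antiviral effectors, 5 RNA sensors and their regulators, 6 genes of class I antigen presentation, 4 genes of the PARP and DTX3L group and 5 other interferon-induced genes.

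RNA was sequenced from immortalized myoblasts of p53 knockout mice, so that every group lacks p53. The LAP2α knockout (KO) cells had received Cas9 together with an sgRNA specific for LAP2α, and the wildtype (WT) cells the Cas9 plasmid without sgRNA. Both were pools of cells sorted for the EGFP of the plasmid and not clones. Cells of each genotype were harvested while proliferating below confluence in 20% serum (Prol), on reaching confluence (D0), and on day 2 of differentiation in 5% serum (D2), with 3 replicate libraries in each of the 6 groups. No source used here says that the replicates were separate cultures, so that the p-values measure the spread between these libraries, which may be technical. The libraries held 26437823 to 41619016 expected counts, and the levels are given as CPM, counts scaled by a library total that carries a TMM factor. Since these are bulk samples of cell pools, fewer cells with a transcript and less transcript per cell cannot be told apart.

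Interferons are secreted proteins that cells release on sensing viral or misplaced nucleic acid. Type I interferon binds a receptor on the cell surface and activates a complex of STAT proteins with IRF9, which binds a short DNA motif, the interferon-stimulated response element (ISRE), in the promoters of its target genes. Type II interferon acts through STAT dimers that bind a different motif, the gamma-activated site (GAS). Targets include proteins that block viral RNA and the machinery that loads peptides onto class I major histocompatibility molecules and presents them at the cell surface. Muscle fibers normally carry little class I protein, and its presence on fibers is a known feature of inflammatory muscle disease.

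Promoter sequences are shown for 6 members to make the motifs of the set visible. They cover 5 members whose promoters hold an ISRE upstream of the start and *Irf1*, which has a GAS. RefSeq promoter windows on GRCm38.p6, from 250 bases before to 50 bases after a transcription start, were matched by symbol for 28 of the 35 members. The ISRE core was searched as GAAA, any 2 bases and GAAA on either strand (TTTC, any 2 bases and TTTC when read on the other one) and the GAS as TTC, any 3 bases and GAA, which matches itself on the other strand. Overlapping matches were counted. An ISRE core was present in 10 of the 28 members (35.7%) and in 3.99% of the 27025 genes with a window, and a GAS in 7 members (25%) and in 9.55% of all genes. The members with an ISRE core were *B2m*, *Bst2*, *Ddx58*, *Eif2ak2*, *Ifih1*, *Ifit1*, *Ifit3*, *Isg15*, *Rsad2* and *Stat2*. Those with a GAS were *Adar*, *Bst2*, *Eif2ak2*, *Ifi35*, *Ifit2*, *Irf1* and *Samhd1*. A match is a run of letters and not evidence of binding. The stretches below run 5′ to 3′ along the strand of the gene from 170 to 51 bases before the start, with matches to either motif in capitals. *Isg15* lies on the minus strand at chr4:156200869-156200988, *Ifit1* on the plus strand at chr19:34640719-34640838, *Ifit3* on the plus strand at chr19:34583359-34583478, *Bst2* on the minus strand at chr8:71537523-71537642, *B2m* on the plus strand at chr2:122147517-122147636, and *Irf1* on the plus strand at chr11:53769844-53769963.
Isg15: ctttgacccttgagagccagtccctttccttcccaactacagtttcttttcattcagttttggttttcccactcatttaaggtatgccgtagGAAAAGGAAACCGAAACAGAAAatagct
Ifit1: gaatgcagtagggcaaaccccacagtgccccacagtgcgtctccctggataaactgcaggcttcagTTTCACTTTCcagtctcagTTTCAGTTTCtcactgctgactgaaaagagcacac
Ifit3: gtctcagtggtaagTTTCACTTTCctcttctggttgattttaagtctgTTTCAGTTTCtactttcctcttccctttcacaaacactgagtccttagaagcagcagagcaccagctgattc
Bst2: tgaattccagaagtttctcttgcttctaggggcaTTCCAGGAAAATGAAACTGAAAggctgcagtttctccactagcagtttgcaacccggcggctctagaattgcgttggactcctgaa
B2m: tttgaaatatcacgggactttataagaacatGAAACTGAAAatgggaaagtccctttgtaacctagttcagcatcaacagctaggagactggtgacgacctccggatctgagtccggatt
Irf1: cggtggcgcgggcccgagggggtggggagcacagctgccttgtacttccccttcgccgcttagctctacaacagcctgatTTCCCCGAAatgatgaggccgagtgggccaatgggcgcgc
*Isg15* holds a run of 3 overlapping ISRE cores, beginning 78, 72 and 66 bases before the start. *Ifit1* and *Ifit3* each hold a pair of cores on the other strand, and in *Bst2* a GAS at 136 bases before the start runs into 2 overlapping ISRE cores.

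Some features of the libraries bear on the values below. The edited gene *Tmpo*, which encodes LAP2α and other LAP2 isoforms, is counted over all isoforms, and its KO/WT log2 fold changes of -0.28 in Prol, -0.25 in D0 and -0.21 in D2 cells do not measure LAP2α alone. At D2 the replicate 1 libraries of both genotypes stood apart from replicates 2 and 3. Replicate 1 was the highest of the 3 D2 libraries in both genotypes for 34.6% of all genes tested and the lowest in both for 35% of them. Markers of cell types were read as levels. The 8 of 9 myogenic markers in the files (*Pax7* is not among them) summed to 42.3 to 84.6 CPM in the Prol and D0 libraries, 1843 to 3498 in WT D2 and 1169 to 1346 in KO D2. Of 10 immune cell markers only *Cd68* and *Csf1r* were listed, summing to 3.62 to 4.42 CPM at D2 against 4.74 to 8.0 before, and defining markers such as *Ptprc*, *Adgre1*, *Itgam*, *Lyz2*, *C1qa*, *Tyrobp* and *Cd3e* were not among the genes in the files. *Csf1r* had lower means at D2 than in Prol and D0 in both genotypes, whereas *Cd68* had higher ones. The 3 of 4 endothelial markers summed to at most 2.46 CPM in any library, with *Cdh5* not listed. The 6 fibroblast or fibroadipogenic markers, among them *Col3a1* and *Dcn*, summed to 439 to 673 CPM in Prol, 481 to 1512 in D0 and 3358 to 10774 in D2 cells. Of the myogenic markers, 7 of 8 had higher means at D2 than in Prol in both genotypes and *Myf5* had lower ones, and *Myh3* made up 56.5% of the WT and 53.8% of the KO sum at D2. All 6 fibroblast markers had higher means at D2 than in Prol, while *Ly6a* was lower at D2 than at D0 in WT, and *Col3a1* made up 96.4% and 96.1% of the D2 sums. The part of these cell types in the results below was not tested.

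To see how the set behaved during early differentiation, D2 cells were compared with proliferating cells in each genotype. Most of the members that moved were higher at D2. In WT cells 17 of 35 members rose and 2 fell (adjusted p-value under 0.05, limma with Benjamini-Hochberg adjustment over all genes), against 16.6% of all genes tested that rose and 14.1% that fell. In KO cells 18 members rose and 1 fell, against 17.1% and 15.2% of all genes. Since the set was chosen with earlier results of these data known, these shares describe it and do not test it. The median log2 fold change of the members was 0.98 in WT and 0.99 in KO, with 31 of 35 values above 0 in each, whereas the median over all genes was -0.01 and 0.02. The 15 members that rose in both genotypes make up 15 of the 17 in WT and 15 of the 18 in KO. They are *Stat2*, *Irf7*, *Irf9*, *Ifit1*, *Ifit2*, *Ifit3*, *Isg15*, *Ddx58*, *Tap1*, *Tap2*, *Tapbp*, *H2-K1*, *Parp9*, *Parp14* and *Ifi27*. The D2 libraries lay entirely above the Prol libraries for 22 members in WT and 24 in KO, against 23% and 25.1% of all genes, and entirely below for 2 and 1 members, against 20.5% and 22.6%. Leaving out single libraries gave 11 to 18 called members in WT, the lowest without WT Prol replicate 3, and 13 to 20 in KO. Shares of all genes called were not computed for these fits, so their counts cannot be set against them. Of the called members, 10 in WT and 12 in KO passed in all 6 fits that each left out 1 library of the comparison. Both sets hold *Irf7*, *Stat2*, *Ifit1*, *Ifit3*, *Tap1*, *Parp9* and *Ifi27*.

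**Figure D1:**
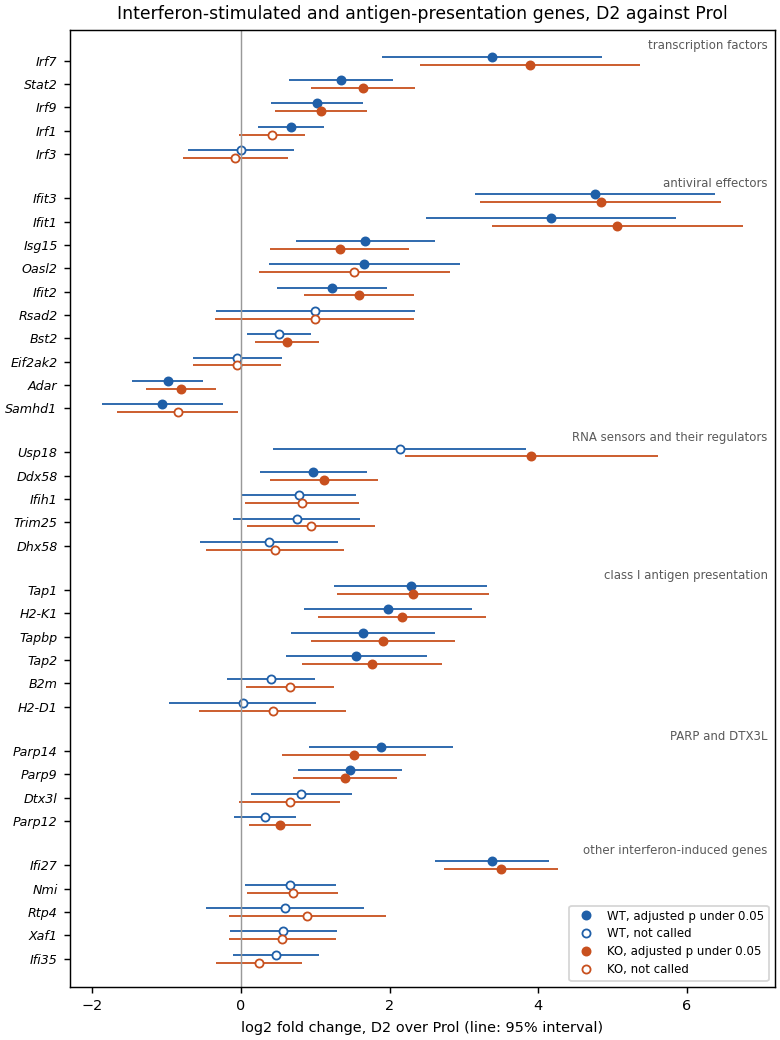
Fitted log2 fold change between D2 and Prol (horizontal axis) for the 35 members, grouped by role, in WT (blue) and KO (orange) cells. Lines are 95% intervals and filled points passed an adjusted p-value of 0.05. *Ifit3* and *Ifit1* lie farthest to the right with values between 4.17 and 5.07, *Adar* lies at -0.99 in WT and -0.81 in KO, and the paired points of most genes overlap. The Prol levels of *Ifit3* and *Ifit1* rest on few counts.

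Of the 5 transcription factors, 4 rose in WT and 3 in KO. *Irf7*, a factor that amplifies the interferon response, was at 0.174, 0.257 and 0.0844 CPM in WT Prol and at 0.937, 2.31 and 1.98 in WT D2 replicates 1 to 3. In KO cells it was at 0.165, 0.330 and 0.0499 CPM in Prol and 1.49, 3.59 and 1.66 at D2. All D2 libraries were above all Prol libraries in both genotypes. The fitted log2 fold changes, each with its standard error in parentheses, were 3.38 (0.70, adjusted p = 0.00164, limma) in WT and 3.89 (0.70, adjusted p = 0.00051, limma) in KO. The value in KO depended on the Prol libraries, at 3.15 with replicate 3 left out and 4.51 with replicate 2 left out. The Prol levels rest on few reads, since 3 counts correspond to 0.0759 to 0.138 CPM in these libraries.

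*Stat2* and *Irf9* encode subunits of the factor that binds the ISRE. *Stat2* was at 11.8, 13.3 and 9.74 CPM in WT Prol and 22.3, 28.6 and 39.4 in WT D2, and at 11.0, 11.9 and 9.26 CPM in KO Prol and 22.0, 49.4 and 33.8 in KO D2. The lowest D2 library was thus above the highest Prol library in each genotype. The log2 fold changes were 1.35 (0.33, adjusted p = 0.00577, limma) in WT and 1.64 (0.33, adjusted p = 0.00132, limma) in KO. *Irf9* averaged 9.08 ± 1.5 CPM (SD, n = 3) in WT Prol and 18.5 ± 3.39 in WT D2, and 9.38 ± 2.10 in KO Prol and 20.0 ± 6.44 in KO D2, with fitted values of 1.02 and 1.07 (adjusted p = 0.0139 and 0.0101, limma). The call was lost without replicate 1 of Prol in either genotype, without WT D2 replicate 3 and without KO D2 replicate 2. *Irf9* overlaps *Rnf31* on the same strand, so that reads may have been divided between them. *Irf1*, which has a GAS in its promoter, rose in WT from 36.5 ± 10.6 to 56.7 ± 4.69 CPM, a log2 fold change of 0.68 (0.21, adjusted p = 0.0232, limma). The call was lost without WT Prol replicate 1 or 3 or without WT D2 replicate 1 or 2. In KO its value was 0.42 and did not pass (adjusted p = 0.148, limma). *Irf3*, which is activated by phosphorylation rather than induction, had log2 fold changes of -0.001 in WT and -0.07 in KO, with 95% intervals of -0.71 to 0.71 and -0.78 to 0.64. With D2 replicate 1 left out these values were 0.34 and 0.33.

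Among the 10 antiviral effectors, 5 rose and 2 fell in WT and 5 rose and 1 fell in KO. The members of the IFIT family bind foreign RNA and hinder its translation. *Ifit3* was at 0.0527, 0.217 and 0.0844 CPM in WT Prol and 2.14, 2.93 and 3.10 in WT D2, with 0.231, 0.173 and 0.0499 CPM in KO Prol and 4.70, 5.62 and 1.78 in KO D2. *Ifit1* was at 0.118, 0.436 and 0.185 CPM in WT Prol and 3.73, 3.84 and 3.88 in WT D2, with 0.268, 0.233 and 0.0502 CPM in KO Prol and 5.95, 5.19 and 3.84 in KO D2. For both genes the groups were separated by a wide gap. The log2 fold changes were 4.77 in WT and 4.84 in KO for *Ifit3* (0.76, adjusted p = 0.000193 and 0.000167, limma) and 4.17 and 5.07 for *Ifit1* (0.79, adjusted p = 0.000861 and 0.000161, limma). The Prol levels of both genes rest on few counts, which leaves the size of these changes uncertain. In KO Prol replicate 3 both were below 0.117 CPM, the level of 3 counts there. *Ifit3* was also below that level in WT Prol replicates 1 and 3 (0.0937 and 0.118 CPM). Without KO Prol replicate 3, the library with the lowest values, the KO values were 4.18 for *Ifit3* and 4.30 for *Ifit1*. *Ifit2* had higher levels before differentiation, 7.73 ± 2.22 CPM in WT Prol (SD, n = 3), and rose to 18.3 ± 5.71 in WT D2, and it was at 7.76 ± 0.93 in KO Prol and 23.8 ± 6.07 in KO D2. Its log2 fold changes were 1.23 and 1.59 (adjusted p = 0.0136 and 0.00235, limma), and the WT call was lost without WT Prol replicate 3 or WT D2 replicate 1. The IFIT genes are similar to each other and lie together on chromosome 19, and reads shared between them were divided by RSEM.

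*Isg15*, a ubiquitin-like protein that is attached to other proteins, averaged 2.01 ± 0.64 CPM (SD, n = 3) in WT Prol and 6.66 ± 2.88 in WT D2, and 2.00 ± 0.58 in KO Prol and 5.21 ± 2.33 in KO D2. Its log2 fold changes were 1.67 (0.44, adjusted p = 0.00854, limma) and 1.33 (0.44, adjusted p = 0.0292, limma). The KO call was lost without KO Prol replicate 1 or 3 or KO D2 replicate 3. *Oasl2*, an oligoadenylate synthetase-like protein, rose in WT (1.66, adjusted p = 0.0483, limma), and its value in KO was similar but did not pass (1.53, adjusted p = 0.0661, limma). The WT call was lost without WT Prol replicate 1 or 3 or WT D2 replicate 2 or 3, and without WT D2 replicate 1 the value was 2.46. *Bst2* (tetherin), which holds budding virus at the cell surface, rose in KO (0.62, adjusted p = 0.0279, limma), with 0.52 in WT (adjusted p = 0.066, limma). The KO call was lost without replicate 1 or 3 of KO Prol or 1 or 2 of KO D2. *Rsad2* (viperin) had values of 1.00 in WT and 0.99 in KO that did not pass, with no library above 0.604 CPM.

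A few effectors did not go with the rest. *Adar*, which edits adenosine to inosine in double-stranded RNA, fell in both genotypes. It was at 45.5, 42.1 and 56.9 CPM in WT Prol and 23.5, 21.1 and 28.3 in WT D2, with 50.5, 39.7 and 56.2 CPM in KO Prol and 28.0, 27.7 and 27.0 in KO D2. Every D2 library was below every Prol library. The log2 fold changes were -0.99 (0.22, adjusted p = 0.00326, limma) and -0.81 (0.22, adjusted p = 0.0111, limma), the latter not passing without KO Prol replicate 3. *Samhd1*, which degrades deoxynucleotides, fell in WT (-1.06, adjusted p = 0.0464, limma), and its value in KO was -0.85 (adjusted p = 0.103, limma). The WT call was kept only when WT D2 replicate 1 was the library left out. *Eif2ak2* (PKR), a kinase that halts translation on binding double-stranded RNA, had values of -0.05 in WT and -0.06 in KO, with 95% intervals of -0.64 to 0.55 and -0.65 to 0.54. The sign of both depended on the scaling, with 0.11 and 0.07 when library totals were used.

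**Figure D2:**
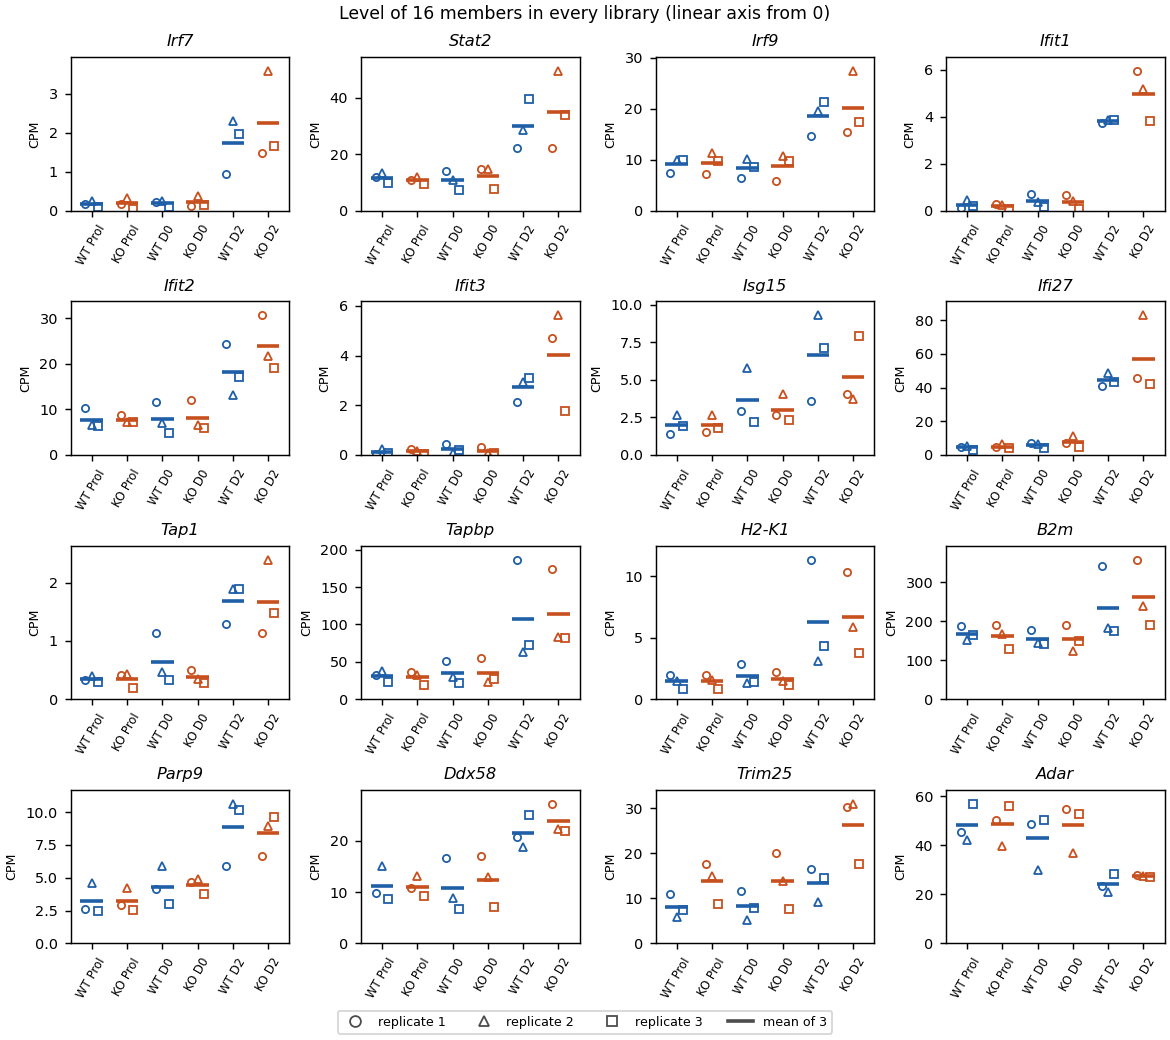
CPM (vertical axis, linear from 0) of 16 members in each of the 18 libraries, with WT in blue, KO in orange, marker shapes for replicates 1 to 3 and bars at the mean of 3. *Irf7*, *Ifit1*, *Ifit3* and *Ifi27* are near the bottom of their panels in Prol and D0 and high at D2, replicate 1 is the highest D2 point of *Tapbp*, *H2-K1* and *B2m*, and *Adar* is lowest at D2.

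Of the 5 RNA sensors and their regulators, *Ddx58* alone rose in WT and *Ddx58* and *Usp18* in KO. *Ddx58* encodes RIG-I, a sensor of viral RNA in the cytoplasm, and was at 9.92, 15.0 and 8.57 CPM in WT Prol against 20.7, 18.7 and 25.0 in WT D2. In KO cells the values were 10.8, 13.1 and 9.18 against 27.2, 22.3 and 21.9. The D2 libraries were above the Prol libraries in both genotypes, with log2 fold changes of 0.98 (0.34, adjusted p = 0.0404, limma) and 1.12 (0.34, adjusted p = 0.02, limma). These calls rested on single libraries. In WT the call was kept in 1 of the 6 fits, the one without WT Prol replicate 2, and in KO it was lost without KO Prol replicate 1 or 3 or KO D2 replicate 1. *Ifih1* encodes the sensor MDA5, and its values of 0.78 and 0.82 did not pass (adjusted p = 0.119 and 0.0988, limma), although its D2 libraries were above its Prol libraries in both genotypes. *Dhx58* encodes LGP2, a helicase related to these sensors, and had values of 0.38 and 0.45, which did not pass. *Trim25*, described with the genotypes below, had values of 0.75 and 0.94 (adjusted p = 0.183 and 0.0878, limma). *Usp18* removes ISG15 from proteins and dampens receptor signalling. It was at 0.101 ± 0.0182 CPM in WT Prol (SD, n = 3) and 0.455 ± 0.142 in WT D2, a log2 fold change of 2.14 that did not pass (adjusted p = 0.0541, limma). In KO Prol it had 3 or fewer counts in each library, so that its rise to 0.524 ± 0.225 CPM is at least 4.74-fold when 3 counts per library are taken as the limit (adjusted p = 0.00147, limma). With *Usp18* at this bound the median of the members in KO was still 0.99.

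The class I antigen presentation genes rose in both genotypes for 4 of the 6 members, with a median log2 fold change of 1.60 in WT and 1.84 in KO over all 6. *Tap1* and *Tap2* form the transporter that carries peptides into the endoplasmic reticulum. *Tap1* was at 0.335, 0.401 and 0.299 CPM in WT Prol and 1.28, 1.90 and 1.90 in WT D2, and at 0.410, 0.429 and 0.183 CPM in KO Prol and 1.14, 2.39 and 1.47 in KO D2. *Tap2* averaged 2.43 ± 1.25 CPM (SD, n = 3) in WT Prol and 6.65 ± 0.97 in WT D2, and 2.29 ± 0.67 in KO Prol and 7.72 ± 1.70 in KO D2. The log2 fold changes of *Tap1* were 2.28 (0.48, adjusted p = 0.00193, limma) and 2.32 (0.48, adjusted p = 0.00164, limma), and those of *Tap2* were 1.55 and 1.77 (0.45, adjusted p = 0.0145 and 0.00625, limma), the WT call being lost without WT Prol replicate 1 or 3. All D2 libraries of both genes were above all Prol libraries.

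*Tapbp* encodes tapasin, which joins class I molecules to this transporter. It was at 32.7, 37.3 and 22.4 CPM in WT Prol and 187, 62.8 and 71.9 in WT D2, and at 36.2, 31.8 and 19.5 CPM in KO Prol and 175, 83.5 and 82.0 in KO D2. *H2-K1*, a class I heavy chain, was at 1.99, 1.5 and 0.836 CPM in WT Prol and 11.4, 3.15 and 4.33 in WT D2, with 2.01, 1.53 and 0.834 CPM in KO Prol and 10.4, 5.91 and 3.80 in KO D2. For both genes all D2 libraries were above all Prol libraries, and replicate 1 was by far the highest at D2. The log2 fold changes were 1.65 and 1.91 for *Tapbp* (0.46, adjusted p = 0.0118 and 0.00437, limma) and 1.99 and 2.17 for *H2-K1* (0.53, adjusted p = 0.00988 and 0.00531, limma). In WT, the *Tapbp* call was lost without WT D2 replicate 1 or WT Prol replicate 3, and the *H2-K1* call without WT Prol replicate 3. *Tapbp* overlaps *Zbtb22* on the same strand, and the class I heavy chain genes share reads that RSEM divided among them, so that *H2-K1* and *H2-D1* are uncertain as single genes.

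*H2-D1*, the other heavy chain in the set, had log2 fold changes of 0.02 in WT and 0.43 in KO, with 95% intervals of -0.97 to 1.01 and -0.56 to 1.42, and its groups overlapped. Without WT D2 replicate 1, its highest library, the WT value was -0.49. *B2m*, the invariant light chain of class I molecules, had values of 0.41 and 0.66 that did not pass (adjusted p = 0.302 and 0.081, limma). It was at 342, 182 and 175 CPM in WT D2 and 358, 239 and 189 in KO D2, against 151 to 187 in WT Prol and 129 to 189 in KO Prol. In WT the groups overlapped, with replicate 1 alone above the Prol libraries, and in KO the lowest D2 library was level with the highest Prol library.

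Of the PARP and DTX3L group, ADP-ribosyltransferases and a ubiquitin ligase that works with one of them, *Parp9* and *Parp14* rose in both genotypes. *Parp14* was at 0.702, 1.75 and 1.05 CPM in WT Prol and 2.67, 4.13 and 5.92 in WT D2, and its log2 fold changes were 1.89 (0.45, adjusted p = 0.00496, limma) in WT and 1.52 (0.45, adjusted p = 0.0173, limma) in KO, where the call was lost without KO Prol replicate 1 or KO D2 replicate 2 or 3. *Parp9* averaged 3.23 ± 1.19 CPM (SD, n = 3) in WT Prol and 8.87 ± 2.62 in WT D2, and 3.22 ± 0.90 in KO Prol and 8.4 ± 1.53 in KO D2, with log2 fold changes of 1.47 and 1.40 (adjusted p = 0.00304 and 0.00401, limma). *Parp12* rose in KO by 0.53 (adjusted p = 0.0497, limma), a call lost without replicate 1 or 3 of KO Prol or 2 or 3 of KO D2, and its value in WT was 0.32 (adjusted p = 0.24, limma). *Dtx3l*, the partner of *Parp9*, had values of 0.81 and 0.65 that did not pass (adjusted p = 0.0673 and 0.137, limma).

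Among the other interferon-induced genes, *Ifi27* had the smallest adjusted p-value of all 35 members in both genotypes. It encodes a small protein of mitochondrial and nuclear membranes. It was at 4.97, 5.36 and 2.89 CPM in WT Prol and 40.9, 48.6 and 43.4 in WT D2, and at 4.42, 6.52 and 3.81 CPM in KO Prol and 45.5, 83.0 and 42.1 in KO D2. No D2 library came near a Prol library, and the log2 fold changes were 3.38 (0.36, adjusted p = 4.67e-06, limma) and 3.5 (0.36, adjusted p = 3.55e-06, limma). *Xaf1*, *Rtp4*, *Ifi35* and *Nmi* did not pass in either genotype, with values between 0.24 and 0.90. Without WT D2 replicate 1 the WT value of *Rtp4* went from 0.59 to 1.22 and passed (adjusted p = 0.0462, limma). *Rtp4* overlaps the annotated gene *Gm45338* on the same strand.

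With the replicate number as a block, which the pairing check allowed for KO D2/Prol, *B2m*, *Ifih1*, *Irf1*, *Nmi*, *Oasl2* and *Trim25* also rose and *Samhd1* also fell in KO, while the 19 calls above were kept. Shares of all genes called with this block, here and below, were not computed.

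The D0 libraries were used to place the rise before or after confluence. D2 cells differ from D0 cells in both serum (5% against 20%) and time, and these cannot be told apart. At confluence, 0 members differed from proliferating cells in WT (0.00566% of all genes were called) and 0 in KO (0% of all genes), by limma and with voom weights. At an unadjusted p-value under 0.05 there was 1 member in WT, *Usp18*, and 0 in KO, against 2.17% and 1.12% of all genes. The *Usp18* levels in question were at 3 or fewer counts in each WT D0 library. The median log2 fold change of the members was 0.08 in WT and 0.16 in KO, with 22 and 24 of 35 values above 0. Over all genes the median was -0.03 in each genotype, with 46.0% and 44.2% of values above 0. *Isg15* had the next smallest p-value in WT, with 2.93, 5.8 and 2.22 CPM at D0 against 1.42, 2.68 and 1.92 in Prol, so that the groups overlapped, and a log2 fold change of 0.79 with a 95% interval of -0.14 to 1.72. *Ifi27* averaged 4.40 ± 1.33 CPM (SD, n = 3) in WT Prol and 5.99 ± 1.66 in WT D0, and 4.92 ± 1.42 in KO Prol and 7.48 ± 3.40 in KO D0, differences of 0.45 and 0.54 on the log2 scale that did not pass.

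Between D0 and D2, 15 members rose and 1 fell in WT, against 14.7% and 11.3% of all genes, and 17 rose and 1 fell in KO, against 15.3% and 12.9%. These comparisons share their D2 libraries with those against Prol. The medians of the members were 0.86 and 0.92, and those of all genes 0.00 and 0.06. The 15 members that rose in both genotypes were those of the comparison with Prol, with *Usp18* in place of *Isg15*. *Bst2* rose in KO in addition, as did *Rsad2* (1.75, adjusted p = 0.0482, limma), whose call was lost whichever of the 6 libraries was left out. *Adar* fell in both genotypes, with the call lost without D0 replicate 1 or 3 of either genotype or WT D2 replicate 2. *Ifit3* had log2 fold changes of 3.85 in WT and 4.83 in KO, *Ifit1* of 3.5 and 4.17, *Irf7* of 3.23 and 3.43, and *Ifi27* of 2.93 and 2.96. Single D0 libraries moved the first pair. *Ifit3* was at 4.45 without WT D0 replicate 1 and 5.46 without KO D0 replicate 1, and *Ifit1* at 2.88 without WT D0 replicate 3, 3.28 without KO D0 replicate 3 and 4.78 without KO D0 replicate 1. *Usp18* was at least 3.70-fold higher at D2 than at D0 in WT, where its D0 libraries were at the limit. Its fitted value in KO was 3.26, and was 2.34 without KO D0 replicate 1 and 3.86 without KO D0 replicate 2, and in WT it was 3.88, and 4.64 without WT D0 replicate 2. *Tap1* was at 1.14, 0.465 and 0.332 CPM in WT D0, with 1 library close to the lowest D2 value of 1.28, and its log2 fold change of 1.57 in WT was called in 2 of the 6 fits that left out 1 library. So was that of *H2-K1* and that of *Parp9* in WT, and *Parp9* was called in 1 of 6 and *Ddx58* in 2 of 6 fits in KO. The counts depended on single libraries. In WT, 7 members were called without WT D0 replicate 3 and 10 without WT D2 replicate 3, and in KO 11 were called without KO D0 replicate 3. A fit of the WT D0 and WT D2 libraries alone called 7. For these fits, too, shares of all genes called were not computed, so a lower count cannot be read as particular to the members. *Irf9*, *Irf7*, *Usp18*, *Ifit1*, *Stat2*, *Ifi27* and *Ifit3* were called in all 6 leave-one-out fits in both genotypes. In KO, the replicate block, which the pairing check allowed, added *B2m*, *Dhx58*, *H2-D1*, *Oasl2* and *Trim25* to the risers and *Samhd1* to those that fell.

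The members did not move together among the D2 libraries. In both genotypes replicate 1 was the highest library for 4 of the 6 class I genes, *Tapbp*, *B2m*, *H2-D1* and *H2-K1*, and the lowest for the transporter genes *Tap1* and *Tap2*. It was also the lowest in both genotypes for all 4 genes of the PARP and DTX3L group and for the transcription factors *Stat2*, *Irf3*, *Irf7* and *Irf9*. *H2-D1* was at 25.6, 7.91 and 9.73 CPM in WT D2 and 22.5, 14.3 and 8.83 in KO D2, whereas *Oasl2* was at 1.24, 6.55 and 6.59 in WT and 1.59, 2.42 and 3.76 in KO. Replicate 1 minus the mean of the other two on the log2 scale was 1.55 and 1.01 for *H2-D1* and -2.41 and -0.92 for *Oasl2*, in WT and KO. Over the set, 7 members were highest and 14 lowest in replicate 1 of both genotypes, against the 34.6% and 35% of all genes given above. The TMM factors ranged from 0.909 to 1.18 over the 18 libraries, and in the D2 libraries they were 0.909 in WT replicate 1 and 0.931 in KO replicate 1, against 1.11 to 1.18 in the other four. The part of these factors in the pattern was not tested. Without both replicate 1 libraries at D2, a setting chosen after these levels had been seen, 19 members rose and 2 fell in WT D2/Prol and 20 rose and 2 fell in KO D2/Prol. The *Ddx58* calls were lost there in both genotypes. Medians of the members in this setting were 1.09 in WT and 0.93 in KO, against 0.03 and 0.07 over all genes. Shares of all genes called were not computed for it, so its counts cannot be set against them.

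**Figure D3:**
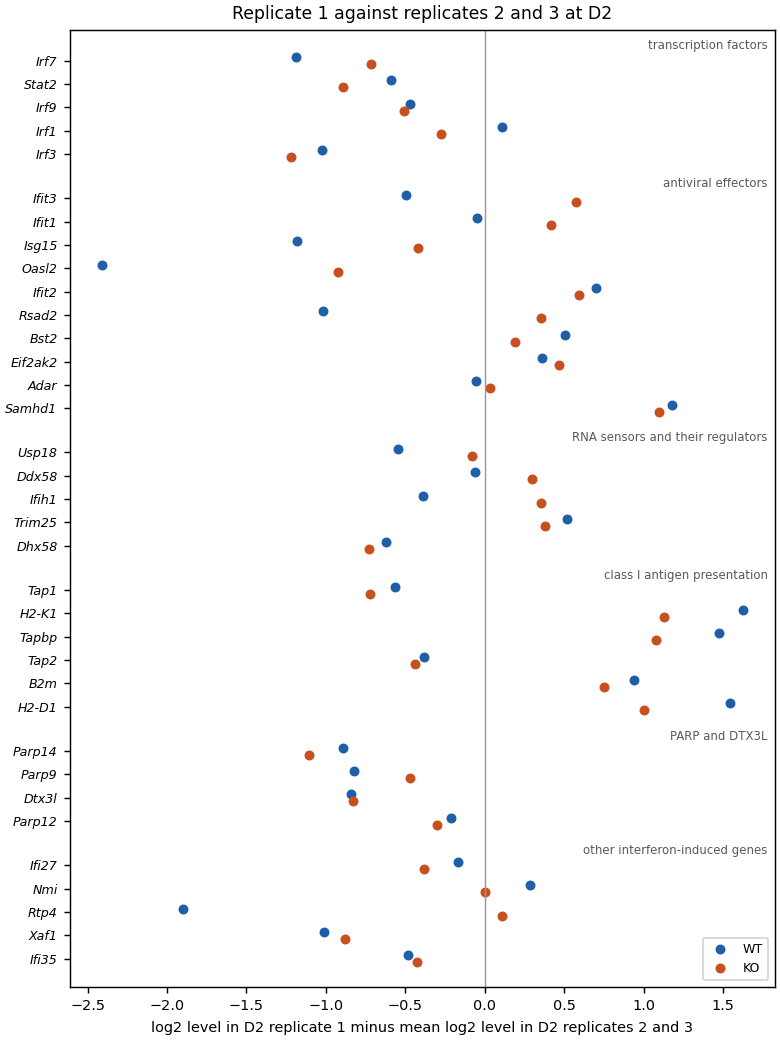
Log2 level of each member in D2 replicate 1 minus its mean log2 level in D2 replicates 2 and 3 (horizontal axis), in WT (blue) and KO (orange), with members grouped by role. *H2-K1* (1.62 in WT), *H2-D1* and *Tapbp* lie far to the right in both genotypes, and all 4 genes of the PARP and DTX3L group lie to the left.

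To ask whether the loss of LAP2α altered these genes, KO was compared with WT cells in each state. In Prol, D0 and D2 cells and in the average over the 3 states, 0 of 35 members passed the adjusted p-value (limma), against 0.00566%, 0%, 0% and 0.00566% of all genes, and 0 passed with voom weights or with the replicate block. At an unadjusted p-value under 0.05 there were 0 members in Prol, 0 in D0, 1 in D2 and 1 in the average, *Trim25* in both, against 1.11%, 1.47%, 1.96% and 2.3% of all genes. The median log2 fold change of the members was -0.01 in Prol, 0.00 in D0, 0.13 in D2 and 0.02 in the average. Over all genes it was 0.001, 0.014, -0.013 and -0.003. The 95% interval of a member's KO/WT difference within a state extended 0.77 to either side in the median, and 0.45 for the average. These widths differed between members and are not limits of detection. A larger difference could also fail the adjusted threshold, as the highest value at D2, 0.96, did. The paper, which used an unadjusted p-value, reports genes that differed between KO and WT at D2, where no gene passed here. Among those not passing was *Myog*, which averaged 393 CPM in WT D2 and 198 in KO D2. The counts of 0 thus do not show that the members were unaffected. No member passed a test of whether its change from Prol to D2, or from D0 to D2, differed between the genotypes. The count was 0 of 35 with limma and with voom weights, against 0% and 0% of all genes. At an unadjusted p-value under 0.05 (limma) it was 0 and 0 members, against 0.945% and 1.78% of all genes. The 95% interval of this difference extended 1.09 to either side in the median, with fitted values of -0.37 to 1.77 and -0.62 to 0.98. *Irf7*, *Ifit3*, *Ifi27* and *Tap1*, which had large rises at D2, had KO/WT values at D2 of 0.35, 0.42, 0.29 and -0.07, with 95% intervals of -1.13 to 1.83, -1.19 to 2.04, -0.47 to 1.06 and -1.09 to 0.95. The sign of the values of *Irf7*, *Ifi27* and *Tap1* changed when single D2 libraries were left out. The summed level of the myogenic markers was lower in KO than in WT D2 libraries, as given above. *Myf5* went the other way, averaging 20.0 CPM in KO D2 and 17.6 in WT D2, and the other listed markers had lower means in KO.

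*Trim25* encodes a ubiquitin ligase that activates RIG-I, and it was the member with the smallest p-value between KO and WT at D2, D0 and in the average. It was at 10.9, 5.87 and 7.38 CPM in WT Prol and 17.6, 15.1 and 8.69 in KO Prol. At D0 the values were 11.7, 5.20 and 7.96 in WT and 20.1, 13.9 and 7.63 in KO. At D2 they were 16.6, 9.29 and 14.5 in WT and 30.3, 31.0 and 17.5 in KO. The KO library was above the WT library of the same number in 8 of 9 pairs, the exception being replicate 3 at D0, and replicate 3 was the lowest KO library in every state. The groups overlapped in Prol and D0 and did not overlap at D2, where 2.35% of all genes had all KO libraries above all WT libraries. The log2 fold changes were 0.76 (0.40) in Prol, 0.71 (0.40) in D0 and 0.96 (0.40, unadjusted p = 0.0307, limma) in D2 cells, with an average of 0.81 (95% interval 0.32 to 1.31, unadjusted p = 0.0032, adjusted p = 1, limma). With the replicate block the adjusted p-value of the average was 0.164. The average stayed between 0.70 and 0.94 over the fits that each left out 1 library.

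*Dtx3l* was higher in KO than in the same-numbered WT library in 9 of 9 pairs, but its average log2 fold change was 0.22 with a 95% interval of -0.17 to 0.61. *Nmi* and *Xaf1* were lower in KO in 8 of 9 pairs each, with averages of -0.29 (-0.64 to 0.07) and -0.26 (-0.68 to 0.16). These pair counts and that of *Trim25* are the most one-sided in the set, picked after all members had been counted. The share of all genes with such counts was not computed, so the counts cannot be set against it. Libraries with the same number mostly deviated together across states, and the 9 pairs were not shown to be independent. *Irf1* and *Nmi* had all KO libraries below all WT libraries at D2, where 3.81% of all genes had, with log2 fold changes of -0.33 and -0.29. *Usp18* had all KO below all WT libraries in Prol, where 2.56% of all genes had, at levels of 3 or fewer counts in each KO library.

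**Figure D4:**
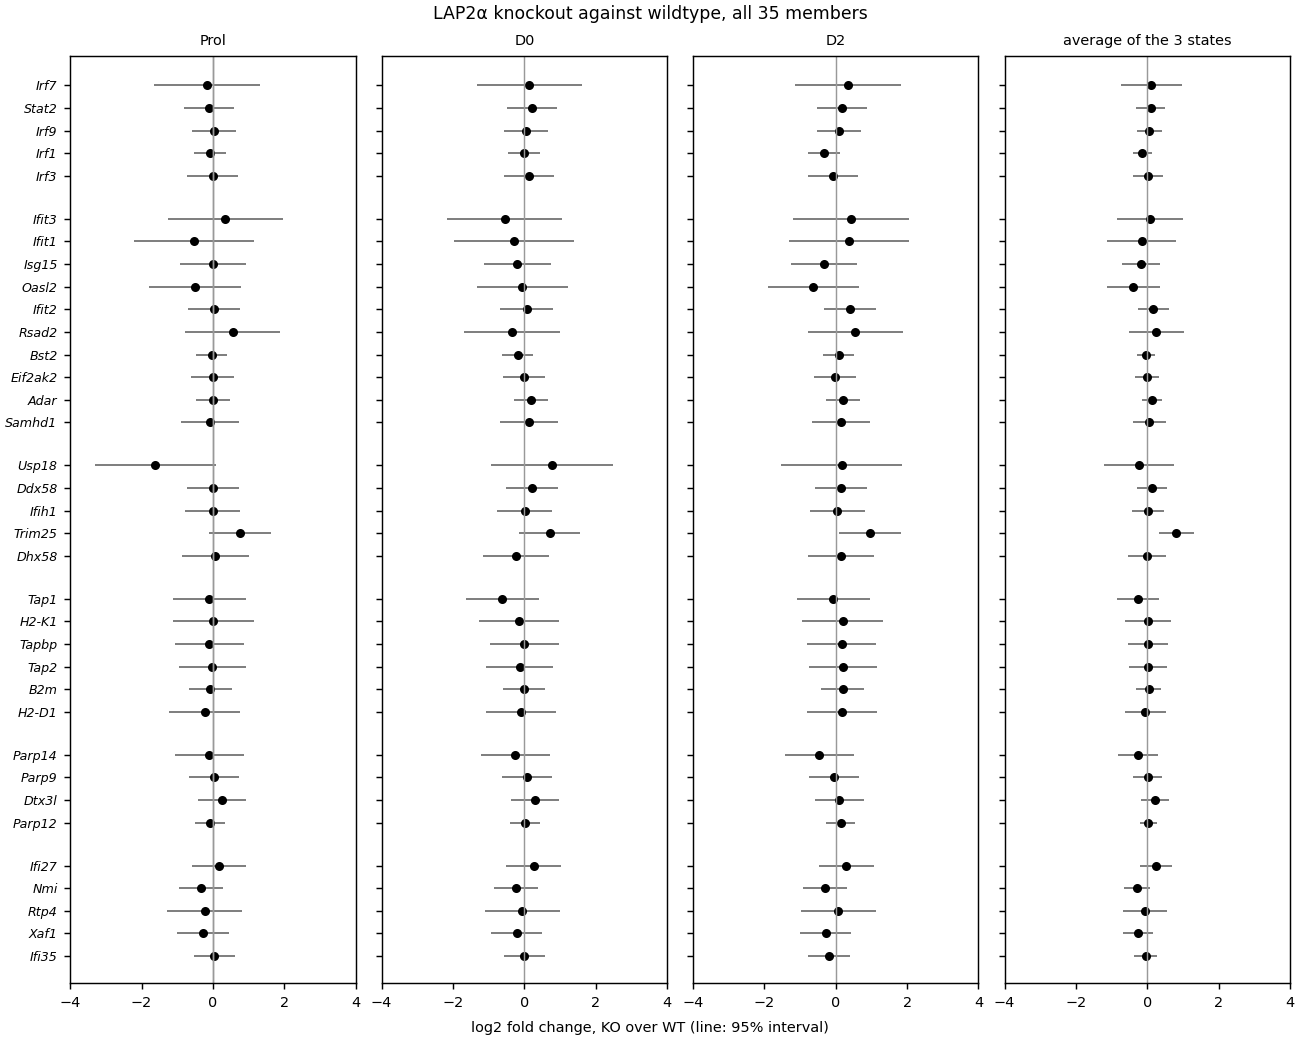
Fitted log2 fold change between KO and WT (horizontal axis) of the 35 members in Prol, D0 and D2 cells and averaged over the 3 states, with 95% intervals as lines. *Trim25* is the 1 member whose interval lies above 0 in D2 cells and in the average.

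Other genes of the interferon pathway were read from lists drawn up by function, with earlier results of these data known. Their counts are thus a description and not an independent test. In the list of ligands, receptors and signalling components, 24 of 34 genes were tested, and none of the interferon genes in the list was among the genes in the files. In D2/Prol, 8 rose and 3 fell in WT and 7 rose and 3 fell in KO. The shares of all genes that rose were 16.6% and 17.1%, and of those that fell 14.1% and 15.2%, in WT and KO. *Tyk2*, a kinase bound to the interferon receptor, rose by 0.97 in WT and 1.06 in KO, and *Ikbke*, a kinase upstream of interferon induction, by 1.66 and 1.57, with the call of *Ikbke* lost without replicate 1 or 3 of Prol or 2 or 3 of D2 in either genotype. *Irf5*, a factor active in immune cells, fell by 4.14 on the log2 scale in both genotypes, from 46.4 ± 4.25 CPM in WT Prol and 52.2 ± 9.66 in KO Prol to 4.04 ± 4.58 in WT D2 and 3.66 ± 3.09 in KO D2 (adjusted p = 8.83e-05 and 9.02e-05, limma), with -5.05 and -4.79 when D2 replicate 1 was left out. *Mb21d1*, which encodes the DNA sensor cGAS, fell by 1.77 and 1.78, with 15.6 ± 3.97 CPM in WT Prol and 4.47 ± 0.132 in WT D2, and 14.4 ± 1.14 in KO Prol and 4.24 ± 0.807 in KO D2.

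Of 43 other interferon-stimulated genes tested from a list of 50, 23 rose and 2 fell in WT D2/Prol and 19 rose and 3 fell in KO, with medians of 1.07 and 0.96. *Ccl5*, a chemokine, rose by 4.54 in WT (3.92 without WT D2 replicate 1) and 3.67 in KO (4.30 without KO Prol replicate 1), and *Tor3a*, an ATPase of the endoplasmic reticulum, by 2.17 and 2.09. *Trim30a* rose by 2.60 and 2.42. Among 17 other antigen presentation genes tested from a list of 19, 1 rose and 1 fell in WT and 2 rose and 0 fell in KO, below those shares of all genes. *Mr1*, which presents microbial metabolites, rose by 1.64 and 1.74. *H2-T23*, a non-classical class I heavy chain, rose in KO by 2.24 and was not called in WT. *Tapbpl*, a relative of tapasin, fell in WT by 0.85 and was not called in KO. No gene of this list passed a test of whether its change from Prol to D2 differed between the genotypes (limma). Of the MHC class II list, 3 of 7 genes were tested, and *H2-DMa*, a subunit of the peptide-loading factor of class II molecules, rose by 2.05 and 2.36, with 0.581 ± 0.231 CPM (SD, n = 3) in WT Prol and 2.32 ± 0.561 in WT D2, and 0.511 ± 0.0626 in KO Prol and 2.74 ± 0.982 in KO D2. In KO/WT D2 and in the average of the states, 0 genes of these 4 lists passed by limma.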

How the data were processed

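Polyadenylated RNA of the 18 libraries was sequenced as single-end reads. Before deposit, the authors removed adapters (cutadapt), aligned reads to transcripts of GRCm38 (NextGenMap), obtained expected counts per transcript (RSEM) and per gene (tximport), dropped weakly expressed genes and applied TMM factors (edgeR) and voom. Each deposited value is a CPM, the expected count plus 0.5 over the library total multiplied by its TMM factor. Of the recovered counts under 20, 36.0% to 49.2% were whole (tolerance 0.01), so no count test was used. The values were put on a log2 scale and analysed with limma 3.58.1 in R 4.3.3 (lmFit, eBayes with variance trend), using 1 coefficient per group, all 18 libraries and genes above 5 expected counts in the 3 libraries of any group (17672). Benjamini-Hochberg adjustment covered all of these. The script was first tested on simulated data. Limits at 3 counts cover counting error only.

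Groups and replicate numbers came from the labels. The members and lists were chosen with earlier results of these data known. The members named are those with an adjusted p-value under 0.05 or, where there were none, the 3 with the smallest p, and all members are accounted for. Of other lists, at most 6 called genes with the largest change and a mean of at least 1 CPM were eligible, and some eligible genes are not reported here. Whether replicate numbers pair the libraries was checked by correlating, over genes, how far libraries with the same number lay from the mean of their group. The correlation was over 0.1 in 40 of 45 pairs (-0.0358 to 0.645), and for all 3 replicates in every comparison of 2 groups except WT D2/Prol and WT D2/D0. The lane used as a block in the study is not given in the labels. The settings varied were the weights (voom), the scaling (median of ratios, or library totals), the filter (none), log2(CPM + 1), the replicate block, only the groups compared, a threshold of unadjusted p under 0.05, over 1.5-fold and at least 10 CPM in a library and each library left out in turn. The methods of the study word the change as an absolute log2 fold change over 1.5, which was added as a setting after the data had been seen. Positions are from GENCODE M21 (GRCm38), promoters from RefSeq (GRCm38.p6). Figures were drawn with matplotlib 3.10.9.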

Additional observations from a re-analysis of the deposited data

How the results depend on the processing

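The counts of members called in D2/Prol and D2/D0 kept to within 1.5 times of the values above under voom weights, scaling by median of ratios or by library totals, no filter, log2(CPM + 1) and the replicate block. At an unadjusted p-value under 0.05, a change over 1.5-fold and 10 CPM in a library, 11 members were called in WT D2/Prol, 12 in KO D2/Prol, 9 in WT D2/D0, 11 in KO D2/D0, 1 in KO/WT D2 and 1 in the KO/WT average (*Trim25* in both), against 23.6%, 24.9%, 20.7%, 22.6%, 0.464% and 0.385% of all genes. With the log2 fold change over 1.5 instead, a setting added after the data had been seen, 3, 5, 4 and 4 members were called in the first 4 of these, against 7.68%, 8.18%, 6.72% and 7.14% of all genes, and 0 in every KO/WT comparison. Many members do not reach 10 CPM. A fit of only the groups compared called 7 in WT D2/D0. With each library left out in turn the counts ranged from 11 to 18 in WT D2/Prol, 13 to 20 in KO D2/Prol, 7 to 16 in WT D2/D0 and 11 to 18 in KO D2/D0, the lowest without replicate 3 of WT Prol, KO Prol replicate 1, WT D0 replicate 3 and KO D0 replicate 3. In the KO/WT comparisons and the differences between genotypes the count was 0 under every alternative except the 1.5-fold threshold. No called member changed direction. Values near 0 that were not called did. In WT D2/Prol, *Irf3* was 0.0084 with voom weights, 0.018 with median-of-ratios scaling, 0.16 with library totals, 0.0022 with log2(CPM + 1), 0.34 without both D2 replicate 1 libraries and from -0.20 to 0.34 over the fits with 1 library left out. *H2-D1* there was -0.0055 with voom weights, -0.49 without both D2 replicate 1 libraries and from -0.49 to 0.35 over such fits, and *Eif2ak2* was 0.11 with library totals and from -0.17 to 0.079 over such fits. In KO D2/Prol, *Irf3* was 0.057 with library totals, 0.33 without both D2 replicate 1 libraries and from -0.35 to 0.33 over such fits, and *Eif2ak2* was 0.074 with library totals and from -0.21 to 0.12. In KO/WT D2, such fits gave -0.047 to 0.60 for *Irf7*, -0.014 to 0.47 for *Ifi27* and -0.37 to 0.17 for *Tap1*. The replicate block called 26 members in WT D2/Prol (24 higher, 2 lower), where replicate 3 did not deviate together (0.0393), 26 in KO D2/Prol, 22 in WT D2/D0 and 24 in KO D2/D0, and it changed no call outside these comparisons. The shares of all genes called were not computed with the block, in the other refits varied here or with a library left out. With library totals the median of all genes moved from -0.01 to 0.15 in WT D2/Prol and from 0.02 to 0.16 in KO D2/Prol, and that of the members to 1.14 and 1.12. Depth limits *Irf7*, *Ifit1*, *Ifit3*, *Rsad2* and *Usp18*, whose Prol levels rest on few counts.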
